A study of Mus musculus with 6 samples.

Results

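The subplate and layer 6b marker genes are 8 genes, Cplx3, Ctgf, Nxph4, Nr4a2, Moxd1, Tmem163, Lpar1 and Inpp4b, taken by symbol from the 24972 genes of a bulk RNA sequencing table of mouse cortex at postnatal day (P) 7. Total RNA came from dissected cortices of 3 wildtype libraries, which carry the floxed allele without Cre (Zmiz1f/f), and of 3 Zmiz1-KO-labelled libraries, in which Cre under the control of Emx1 acts on the same floxed allele (Zmiz1f/f;Emx1Cre). Emx1-Cre is active in the progenitors of cortical excitatory neurons and of cortical glia, and not in those of interneurons, microglia, vessels or meninges, so a dissected cortex holds cells without recombination in either group. Age, sex, litter and batch of single animals are not given beyond P7, and whether a library holds RNA of 1 animal is not stated. The labels also mention an isolation of progenitor cells, while the RNA is described as that of the cortex. P values measure the spread between these libraries.

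The subplate is a layer of early-born neurons under the cortical plate. Its cells guide growing thalamic axons and relay their input before the target layer is in place, many of them die after birth, and those that persist form layer 6b of the adult mouse. Their RNA is sparse in a whole cortex, and the 8 genes mark overlapping subsets of them. Several are also used by other cells. Cplx3 is found in Lamp5 neurogliaform interneurons, Ctgf in fibroblasts and vessels, Nr4a2 in the claustrum and among genes induced by activity, and Lpar1 in oligodendrocytes as they mature. In a bulk sample, fewer cells of a type and less RNA per cell cannot be told apart.

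Zmiz1 itself, the target of the deletion, was higher and not lower under the knockout label. Its mean was 7836 ± 339 normalized counts (SD, n = 3) in wildtype against 9794 ± 143 (SD, n = 3), with a log2 fold change of 0.32 and a limma adjusted p of 0.00125. The table holds no values per exon, so this row does not separate transcripts with and without the floxed part, and the groups are named by their label throughout. The library sums ran from 32661979 to 33239707 normalized counts. Xist, the RNA of the inactive X chromosome, marked 1 library of each group as female, wildtype replicate 3 and Zmiz1-KO-labelled replicate 2. Cortical excitatory neuron genes were abundant in every library, as for Slc17a7, the vesicular glutamate transporter, at 18675 to 20879 normalized counts. Choroid plexus RNA varied between libraries, and the summed level of its 6 markers ran from 362 to 8500 normalized counts in wildtype and from 407 to 4960 in the Zmiz1-KO-labelled libraries.

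All 8 genes passed the filter for testing, set at 10 normalized counts in no fewer than 3 libraries, which 15800 genes met. Of the 8, only Cplx3 passed a limma adjusted p of 0.05 over all tested genes, and it fell. Among all tested genes 65 passed, or 0.411%, and 39 of them, or 0.247%, fell. No overlap of the groups was seen for 2 of the 8 genes, Cplx3, which was lower, and Nxph4, which was higher in the Zmiz1-KO-labelled libraries. That was so in 16.3% of the tested genes, 8.10% higher and 8.16% lower. The log2 fold change was above 0 in 6 of the 8 genes, against 49.9% of the tested genes, and the median over the 8 was 0.098, against -0.00018 over the table. In the 4 libraries with low Xist, 4 of the 8 were above 0 and their median was 0.0061, and the median was 0.0082 without wildtype replicate 3 and 0.16 without wildtype replicate 2. At 3 libraries against 3 the smallest p of an exact permutation test is 0.1, and Cplx3 and Nxph4 were the 2 members that reached it (two-sided).

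**Figure D1:**
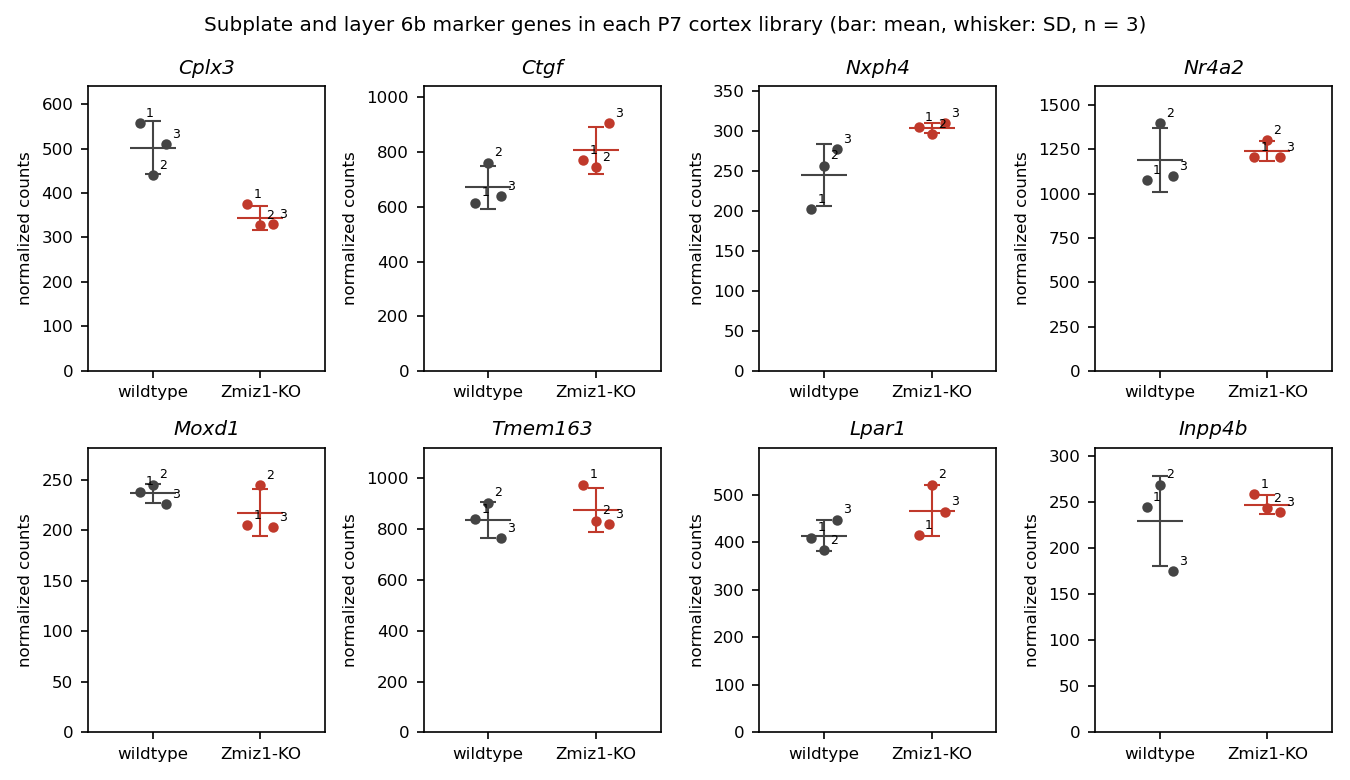
Normalized counts (y axes from 0) of the 8 marker genes in each of the 6 libraries, with wildtype in grey and the Zmiz1-KO-labelled libraries in red. Points carry the replicate number, the bar is the mean and the whisker the SD (n = 3). The groups are apart for Cplx3, 440 to 557 against 327 to 375, and for Nxph4, 202 to 277 against 297 to 310, and they overlap in the other 6 genes.

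Cplx3 encodes complexin 3, a small presynaptic protein that binds the assembled SNARE complex and controls vesicle fusion. It lies on chromosome 9 of GRCm38 from 57599992 to 57606281 on the minus strand, with 3 exons in its longest coding transcript and no other annotated gene over its exons. Wildtype replicates 1, 2 and 3 had 557, 440 and 510 normalized counts, and Zmiz1-KO-labelled replicates 1, 2 and 3 had 375, 327 and 330. Every wildtype library lay above every library of the other group. The means were 502 ± 58.8 (SD, n = 3) and 344 ± 26.9 (SD, n = 3), a ratio of 0.685. The log2 fold change was -0.54 (standard error 0.10, 95% interval -0.76 to -0.33, limma adjusted p = 0.0269), and its size was above that of 96.4% of the tested genes.

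The Cplx3 call depended on which libraries were in the fit. It stayed past the threshold in 2 of the 6 fits that leave out 1 library, those without replicate 2 of either group, with a limma adjusted p from 0.0132 to 0.177 over the 6 and a log2 fold change from -0.63 to -0.46. It was lost without wildtype replicate 1 (adjusted p = 0.141), wildtype replicate 3 (0.0818), Zmiz1-KO-labelled replicate 1 (0.0506) or Zmiz1-KO-labelled replicate 3 (0.177) in limma. It was also lost in the 4 libraries with low Xist (0.0953) and, with all libraries, without limma's robust estimation (0.102). Cplx3 was still the only member called at an adjusted p of 0.1, which 0.671% of tested genes met, and in the fit blocked on replicate number, where 1.06% were called. The study had also picked Cplx3 as a changed gene from these same libraries, so its decrease here is no independent evidence. It measured Cplx3 by quantitative PCR as well, which is not reported here. Markers of the interneurons that share Cplx3 were read beside it. Of 7 genes of interneurons from the caudal ganglionic eminence and of Lamp5 cells, 6 had a log2 fold change above 0 and none passed the threshold. Their summed level was 12329 to 14107 normalized counts in wildtype and 13164 to 14865 in the Zmiz1-KO-labelled libraries, but Reln made up most of it, at 8557 to 9704 and 9262 to 10093. All 6 markers of GABA neurons as a whole also had a log2 fold change above 0 with none past the threshold, at a summed level of 12190 to 16309 normalized counts in wildtype and 16370 to 18408 in the other group. The part of these cells in the Cplx3 values was not tested. Lamp5 itself had 575, 606 and 609 normalized counts in wildtype and 669, 698 and 637 in the other group (log2 fold change 0.16, limma adjusted p = 0.432). Its groups did not overlap, and 8.10% of all tested genes were likewise higher without overlap.

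The 250 bases before the annotated start of Cplx3 (RefSeq, GRCm38.p6, chr9:57606282-57606531, minus strand) are shown because this is the member that passed the threshold. Capitals mark the E-box letters CANNTG, the general pattern read by basic helix-loop-helix factors of many kinds, on either strand.
Cplx3: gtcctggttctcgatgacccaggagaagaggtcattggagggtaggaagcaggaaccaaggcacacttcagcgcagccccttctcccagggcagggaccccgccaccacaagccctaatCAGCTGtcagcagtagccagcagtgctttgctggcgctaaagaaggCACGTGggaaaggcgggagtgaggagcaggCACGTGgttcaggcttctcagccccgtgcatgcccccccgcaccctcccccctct
The window held 3 such matches. Of 32851 promoter windows, 66.2% held 1 or more and 12.2% held at least as many. It held no match to GGAATG (the letters read by TEAD factors), TGANTCA (those of AP-1) or TGACG (part of the cyclic AMP response element). These matches are letters in a window and not measured sites.

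Nxph4 encodes neurexophilin 4, a secreted ligand of alpha-neurexins at synapses. The gene spans chromosome 10 from 127525473 to 127534559 on the minus strand and has 2 exons. Wildtype replicates 1, 2 and 3 had 202, 257 and 277 normalized counts, and Zmiz1-KO-labelled replicates 1, 2 and 3 had 306, 297 and 310. The groups did not overlap, in the direction opposite to Cplx3, with the lowest value in wildtype replicate 1. Means were 246 ± 38.8 (SD, n = 3) and 304 ± 6.72 (SD, n = 3), or 0.32 as a log2 fold change (standard error 0.12, 95% interval 0.061 to 0.58). The limma adjusted p was 0.331, over the threshold. The narrow spread in the Zmiz1-KO-labelled libraries, 2.21% of the mean, is below what counting error alone would give at the estimated depth, and 3 libraries give the SD little precision.

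Ctgf encodes connective tissue growth factor, a secreted matrix protein now named Ccn2 and a widely used marker of layer 6b. It spans chromosome 10 from 24595442 to 24598683 on the plus strand. In wildtype replicates 1, 2 and 3 it had 616, 762 and 639 normalized counts, and in those labelled Zmiz1-KO it had 770, 746 and 906. Wildtype replicate 2 lay above the lowest library of the other group, so the groups overlapped. Means were 672 ± 78.6 (SD, n = 3) and 807 ± 86.3 (SD, n = 3), which is 0.26 as a log2 fold change (standard error 0.093, 95% interval 0.066 to 0.46, limma adjusted p = 0.295). An antisense gene, Gm15270, covers 23.2% of the exonic bases of Ctgf, and the library kit does not mark strand, so reads of both genes cannot be told apart there. Gm15270 is not among the genes with deposited values, and its part in the Ctgf values was not tested.

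Markers of meningeal fibroblasts, which also make Ctgf, were read beside it. Of the 7, all had a log2 fold change above 0, Col1a2 passed the threshold (0.32, limma adjusted p = 0.00464, but 0.0683 without Zmiz1-KO-labelled replicate 3), and their summed level was 17729 to 21276 normalized counts in wildtype and 22875 to 25363 in the Zmiz1-KO-labelled libraries. Of all tested genes, 49.9% had a log2 fold change above 0 and 0.165% rose past the threshold. Col1a2, a chain of type I collagen, had 3921, 3929 and 4348 normalized counts in wildtype and 4926, 5189 and 5059 in the other group. The part of these cells in the Ctgf values was not tested. Among the other CCN family and YAP-TEAD genes, 12 of 14 were tested and none passed. Cyr61, another CCN family member and target of YAP, had 123.5 to 153 normalized counts in wildtype and 177 to 199 in the Zmiz1-KO-labelled libraries (log2 fold change 0.46, limma adjusted p = 0.218). Nov, a family member made by cortical neurons, had 4845 to 5065 and 5192 to 5503 normalized counts (log2 fold change 0.092, limma adjusted p = 0.422).

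Nr4a2 encodes an orphan nuclear receptor, also named Nurr1, that marks the subplate and the claustrum and is induced by neuronal activity. The locus is on chromosome 2 from 57106830 to 57124003 on the minus strand. Across wildtype, replicates 1, 2 and 3 had 1075, 1398 and 1101 normalized counts, and Zmiz1-KO-labelled replicates 1, 2 and 3 had 1207, 1304 and 1206. The highest value was that of wildtype replicate 2, and the other group lay inside the wildtype range. The log2 fold change was 0.066 (standard error 0.091, 95% interval -0.13 to 0.26, limma adjusted p = 0.861), and without wildtype replicate 1 its sign turned (-0.0028).

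Genes induced early by activity were read beside Nr4a2. Of 10 such genes, 4 rose past the threshold, namely Fosb (log2 fold change 1.01, limma adjusted p = 0.0478), Fos (0.95, 0.00125), Egr1 (0.53, 3.30e-05) and Arc (0.40, 0.0444), and the values of 7 did not overlap between the groups. Among all tested genes, 0.165% rose past the threshold, and 8.10% did not overlap and were higher in the Zmiz1-KO-labelled libraries. Fos and Egr1 passed in all 19 alternative settings, while Fosb and Arc passed in 10 each. With 1 library left out, Fosb passed in 2 of 6 fits (limma adjusted p up to 0.342, lost without replicate 1 or 3 of either group) and Arc in 0 of 6 (0.0612 to 0.212). Among the relatives of Nr4a2, Nr4a1 had 859 to 947 normalized counts in wildtype and 1031 to 1083 in the Zmiz1-KO-labelled libraries (log2 fold change 0.23, limma adjusted p = 0.168), and Nr4a3 had 2472 to 2626 and 2448 to 2717 (0.016, 0.943). Of the retinoid X receptors, the partners of Nr4a2 on DNA, Rxrg had the largest difference, 596, 941 and 920 normalized counts in wildtype against 1220, 1247 and 1126 (0.58, limma adjusted p = 0.412). None of the 5 listed genes of this family passed. Of 6 claustrum markers none passed either, and 4 had a log2 fold change above 0. The groups did not overlap for 3 of them, Synpr, Lxn and Oprk1, all higher in the Zmiz1-KO-labelled libraries, against the 8.10% of tested genes. The summed level of the 6 overlapped, 34359 to 37056 and 34714 to 35155 normalized counts, but Gng2 made up most of it, at 23147 to 25519 and 22702 to 23261.

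The Nr4a2 promoter is shown for its cyclic AMP response letters, the letters read by CREB, a factor of activity-dependent transcription. The 250 bases before the start (RefSeq, GRCm38.p6, chr2:57124004-57124253, minus strand) have matches to TGACG on either strand in capitals.
Nr4a2: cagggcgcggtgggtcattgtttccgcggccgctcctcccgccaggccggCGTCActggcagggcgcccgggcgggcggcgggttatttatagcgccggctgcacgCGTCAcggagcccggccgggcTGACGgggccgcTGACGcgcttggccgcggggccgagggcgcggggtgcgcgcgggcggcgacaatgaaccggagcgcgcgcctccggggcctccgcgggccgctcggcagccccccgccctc
The window held 4 matches, 0.137% of all promoter windows held at least as many, and 17.8% held 1 or more. G and C make up 80% of its bases, and these shares were not matched for base composition. The window was also picked for its matches, which are letters and not measured sites. The full letters TGACGTCA were in none of the windows of the 6 members that the RefSeq table holds (Cplx3, Nr4a2, Moxd1, Tmem163, Lpar1 and Inpp4b), against 1.55% of all windows. TGACG was in none of the members' windows other than that of Nr4a2, and neither GGAATG nor TGANTCA was in any of them, against 12.6% and 6.75% of all windows.

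Tmem163 encodes a zinc transporter of synaptic vesicles and lysosomes. The gene spans chromosome 1 from 127486546 to 127679548 on the minus strand, and 3.54% of its exonic bases are shared with Mgat5 on the other strand. Its wildtype replicates 1, 2 and 3 had 839, 903 and 762 normalized counts, and Zmiz1-KO-labelled replicates 1, 2 and 3 had 974, 833 and 818. Zmiz1-KO-labelled replicate 1 was the highest, and the other 5 libraries were interleaved. This gave a log2 fold change of 0.066 (standard error 0.082, 95% interval -0.11 to 0.24, limma adjusted p = 0.837). Of 7 genes of zinc transport and storage none passed the threshold. Slc30a3, which loads zinc into the vesicles of cortical excitatory neurons, had 1037 to 1253 normalized counts in wildtype and 993 to 1143 in the other group (log2 fold change -0.14, limma adjusted p = 0.548).

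Moxd1 encodes a monooxygenase of the endoplasmic reticulum related to dopamine beta-hydroxylase. It lies on chromosome 10 from 24223517 to 24302790 on the plus strand. Wildtype replicates 1, 2 and 3 had 238, 245 and 226 normalized counts, and Zmiz1-KO-labelled replicates 1, 2 and 3 had 205, 244 and 203. Zmiz1-KO-labelled replicates 1 and 3 lay below all wildtype libraries and replicate 2 within their range. The log2 fold change was -0.12 (standard error 0.12, 95% interval -0.38 to 0.13, limma adjusted p = 0.776). Of its relatives, Dbh, dopamine beta-hydroxylase, had 21.0 to 22.7 and 11.0 to 16.3 normalized counts (log2 fold change -0.65, limma adjusted p = 0.567), and Pam had 3291 to 3440 and 3301 to 3661. Moxd1 and Cplx3 were the members with a negative log2 fold change.

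Lpar1 encodes a receptor for lysophosphatidic acid. It spans chromosome 4 from 58435255 to 58553898 on the minus strand. For wildtype, replicates 1, 2 and 3 had 410, 383 and 448 normalized counts, and Zmiz1-KO-labelled replicates 1, 2 and 3 had 414, 521 and 464. The lowest Zmiz1-KO-labelled library lay inside the wildtype range and the other 2 above it. This gave a log2 fold change of 0.17 (standard error 0.10, 95% interval -0.040 to 0.38, limma adjusted p = 0.564). The oligodendrocyte lineage, which also uses Lpar1, was read beside it, and 6 of 7 tested oligodendrocyte genes and 5 of 6 genes of their precursors had a negative log2 fold change. The summed level of the precursor genes was 16710 to 17670 normalized counts in wildtype and 14888 to 15339 in the other group, and their part in the Lpar1 values was not tested. Olig1, a transcription factor of these precursors, fell from a mean of 4673 ± 143 (SD, n = 3) to one of 3730 ± 105 normalized counts (limma adjusted p = 0.00173). Of 10 other genes of lysophosphatidic acid signaling none passed. Lpar6, another receptor, had 141, 129 and 131 normalized counts in wildtype and 93.2, 90.9 and 102 in the Zmiz1-KO-labelled libraries (log2 fold change -0.48, limma adjusted p = 0.240).

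Inpp4b encodes a phosphatase that removes phosphate from phosphoinositides and so limits PI3K signaling. The gene spans chromosome 8 from 81342556 to 82127914 on the plus strand. Wildtype replicates 1, 2 and 3 had 245, 269 and 175 normalized counts, and Zmiz1-KO-labelled replicates 1, 2 and 3 had 259, 244 and 239. Wildtype replicate 3, a female library, was the lowest, and the others lay close together. This gave a log2 fold change of 0.13 (standard error 0.14, 95% interval -0.18 to 0.44, limma adjusted p = 0.813), and without wildtype replicate 3 it was -0.054. Inpp4a, its closest relative, had 4827 to 4860 normalized counts in wildtype and 4645 to 4784 in the other group (log2 fold change -0.041, limma adjusted p = 0.773).

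Other complexins were read beside Cplx3. Cplx1 and Cplx2, the complexins of most cortical synapses, had 8907 to 9641 and 29426 to 30962 normalized counts in wildtype, and 9318 to 9675 and 30941 to 31313 in the Zmiz1-KO-labelled libraries. Their log2 fold changes were 0.048 and 0.033, with 95% intervals of [-0.036, 0.13] and [-0.037, 0.10]. Cplx4 was listed at 0 in all wildtype libraries and was not tested for its low values. None of the 11 tested complexin and SNARE genes passed the threshold, and their median log2 fold change was 0.00048. Neurexophilins and neurexins, the family of Nxph4 and its receptors, had 6 tested genes of which none passed. Nxph2 had 208, 136 and 158 normalized counts in wildtype and 228, 203 and 215 in the other group (log2 fold change 0.39, limma adjusted p = 0.349).

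Per length of transcript, the order of the members in wildtype was Nr4a2, Ctgf, Tmem163, Cplx3, Nxph4, Lpar1, Moxd1 and Inpp4b. Nr4a2 had 334 ± 50.3 normalized counts per kb (SD, n = 3) and Ctgf 270 ± 31.6, and their ranges overlapped, as did those of Ctgf and Tmem163 (239 ± 20.2). Cplx3 followed at 176 ± 20.6, below Tmem163 without overlap, and overlapped Nxph4 at 147 ± 23.1, which overlapped Lpar1 at 117 ± 9.19. Moxd1 (76.5 ± 3.10) and Inpp4b (28.5 ± 6.06) stood apart at the lower end. In the Zmiz1-KO-labelled libraries, Cplx3 was the sixth at 120 ± 9.40 normalized counts per kb, below Nxph4 (182 ± 4.01) without overlap, while its range of 114 to 131 overlapped that of Lpar1, 117 to 147 (mean 132 ± 15.1). These lengths are those of the longest coding transcript. With the length of all exons the wildtype order was the same, but Tmem163 and Cplx3 overlapped, Ctgf and Tmem163 did not, nor did Nxph4 and Lpar1, and Cplx3 was the fifth in the Zmiz1-KO-labelled libraries, with a mean above that of Lpar1 (116 and 109).

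**Figure D2:**
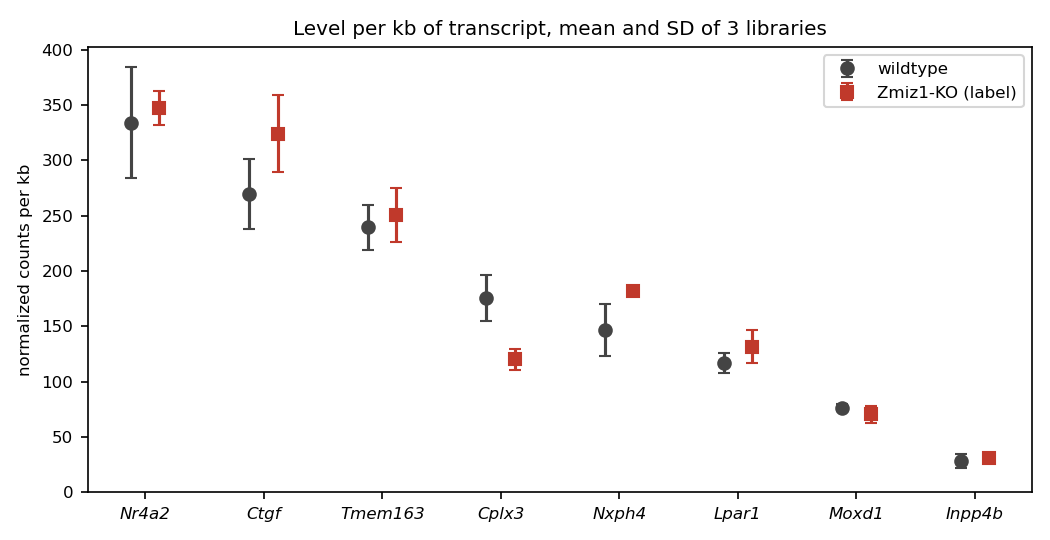
Level of the 8 marker genes in normalized counts per kb of the longest coding transcript (y axis from 0), with the mean and SD of 3 libraries, in wildtype (grey circles) and in the Zmiz1-KO-labelled libraries (red squares). Levels run from 28.5 for Inpp4b to 334 for Nr4a2 in wildtype, and the mean of Cplx3 is 176 in wildtype, where its range overlaps that of Nxph4, and 120 in the Zmiz1-KO-labelled libraries, where it is below Nxph4 and overlaps Lpar1.

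The members can also be read against each other within a library. The ratio of Nxph4 to Cplx3 was 0.364, 0.585 and 0.544 in wildtype replicates 1, 2 and 3, and 0.815, 0.909 and 0.941 in Zmiz1-KO-labelled replicates 1, 2 and 3. The ratio of Ctgf to Cplx3 was 1.11 to 1.73 in wildtype and 2.05 to 2.75 in the other group. Of the 7 ratios to Cplx3, 6 did not overlap between the groups and were higher in the Zmiz1-KO-labelled libraries, all but that of Moxd1, which was 0.428 to 0.557 in wildtype and 0.547 to 0.747 in the other group. All 7 share the Cplx3 values in their denominator, which was picked with the change of Cplx3 known, so they are given as a description with no test. Cplx3 itself was lower in the Zmiz1-KO-labelled libraries without overlap, and this alone raises the ratio of an unchanged gene to it. The share of all tested genes whose ratio to Cplx3 does not overlap was not computed, so the count is no result about the markers. Summed over the 8 members, the level was 4137 to 4658 normalized counts in wildtype and 4476 to 4516 in the Zmiz1-KO-labelled libraries, and these ranges overlapped.

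**Figure D3:**
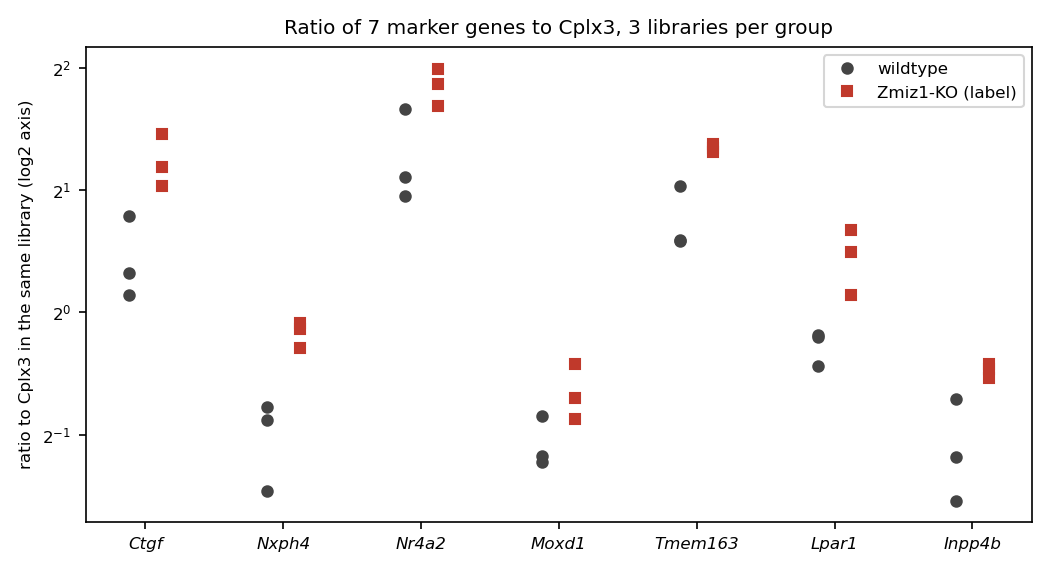
Ratio of each of 7 marker genes to Cplx3 within the same library, on a log2 axis, with 3 wildtype libraries (grey circles) and 3 Zmiz1-KO-labelled libraries (red squares) per gene. The red squares lie above the grey circles for every gene other than Moxd1, where 0.547 in the Zmiz1-KO-labelled libraries is under 0.557 in wildtype.

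The replicates of one group were not alike in the markers. In wildtype, replicate 2 had the highest values of Ctgf, Nr4a2, Moxd1, Tmem163 and Inpp4b and the lowest of Cplx3 and Lpar1, while replicate 1 was the highest in Cplx3 and the lowest in Nxph4. The spread in wildtype ran from 4.06% of the mean in Moxd1 to 21.3% in Inpp4b, with a median of 6.20% over the tested genes, and in the Zmiz1-KO-labelled libraries from 2.21% in Nxph4 to 11.5% in Lpar1, with a median of 5.79%. At an estimated 85 to 713 reads per gene and library, counting error alone would give 4.18 to 9.63% in wildtype. For Moxd1 in wildtype it would give 9.33%, above the 4.06% seen. For Inpp4b in the Zmiz1-KO-labelled libraries it would give 8.88%, above the 4.18% seen, so these spreads, like that of Nxph4, are narrower than counting alone would give. In wildtype 7 of the 8 members were above the median spread of the tested genes, and the 95% intervals of Inpp4b and Moxd1, the least abundant per kb, reach from a decrease by 0.18 and 0.38 to an increase by 0.44 and 0.13 on the log2 scale.

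Other genes tied to the subplate or layer 6b were read in the same fit. Of 17, all were tested and none passed the threshold, 10 had a log2 fold change above 0, and the median was 0.068. Svil, a membrane-bound actin regulator, had 558, 570 and 657 normalized counts in wildtype and 706, 762 and 719 in the Zmiz1-KO-labelled libraries (log2 fold change 0.30, limma adjusted p = 0.159). Hcrtr2, the orexin receptor of layer 6b neurons, had 99.8, 120 and 126 normalized counts in wildtype and 69.1, 117 and 105 in the other group, with a log2 fold change of -0.27 and a wide interval of [-0.70, 0.15] (limma adjusted p = 0.674). Drd1, the dopamine receptor D1, had 626 to 865 normalized counts in wildtype and 861 to 935 in the other group, so the ranges overlapped (log2 fold change 0.22, limma adjusted p = 0.547). Drd1 is also a striatal gene, and the 7 striatal markers all had a log2 fold change above 0 with none past the threshold, at a summed level of 10532 to 14806 normalized counts in wildtype and 15612 to 17300 in the Zmiz1-KO-labelled libraries. Their part in the Drd1 values was not tested. Kcnab1, a potassium channel subunit, had 1591 to 1779 and 1770 to 1809 normalized counts, and its log2 fold change of 0.068 had an interval of [-0.047, 0.18].

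**Figure D4:**
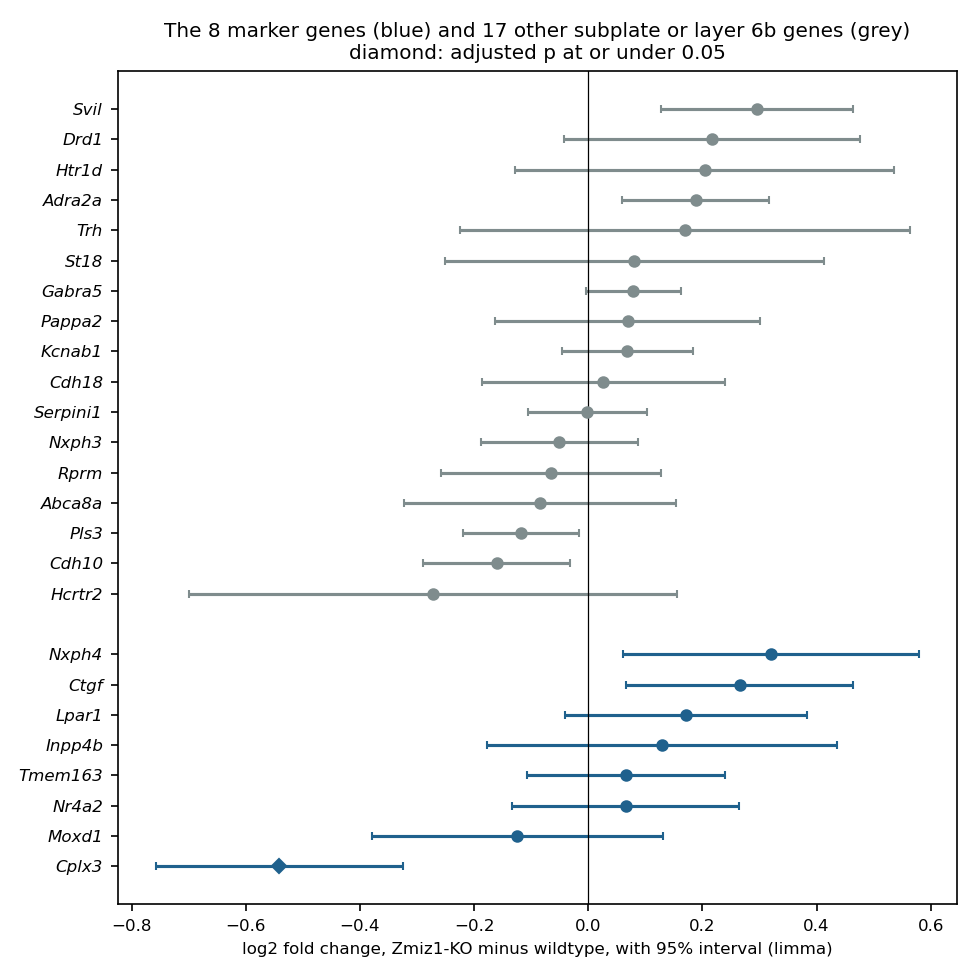
Log2 fold change (Zmiz1-KO minus wildtype, x axis) with its 95% interval from limma for the 8 marker genes (blue) and 17 other genes of the subplate or layer 6b (grey), each sorted by size. The diamond of Cplx3, at -0.54, is the single gene of these 25 past an adjusted p of 0.05, and the intervals of Nxph4, Ctgf, Svil and Adra2a lie above 0 and those of Cdh10 and Pls3 below it without passing the adjustment over all genes.

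The layers above were set beside the markers. Of 10 genes of layer 6 corticothalamic neurons none passed (median log2 fold change -0.0085), and Foxp2, a transcription factor of that layer, had 796, 1110 and 968 normalized counts in wildtype and 1146, 1332 and 1136 in the other group (0.34, limma adjusted p = 0.362). Of 10 genes of layer 5 none passed (median 0.023). Of 12 genes of layers 2 to 4, 3 fell past the threshold, against 0.247% of all tested genes, and the median was -0.21. They were Rorb (-0.43, limma adjusted p = 0.00856), Pou3f2 (-0.27, 0.0213) and Lhx2 (-0.26, 0.0411), all of them transcription factors. None of these 3 calls held without robust estimation (limma adjusted p of 0.0556, 0.0556 and 0.103) or, for Rorb and Lhx2, in the libraries with low Xist (0.0518 and 0.105), and that of Lhx2 was also lost with sex as a covariate (0.0506). With 1 library left out, Rorb passed in 5 of 6 fits (lost without Zmiz1-KO-labelled replicate 3, 0.0971), Pou3f2 in 2 of 6 (lost without replicate 1 or 3 of either group, up to 0.135) and Lhx2 in 1 of 6 (kept without wildtype replicate 2, otherwise up to 0.200). No difference between these lists and the 8 markers was tested. Of the other cells of the cortex, astrocytes had 1 of 6 markers called, Aqp4, the water channel of their end feet (-0.29, limma adjusted p = 0.00499, but 0.0506 and 0.0815 without Zmiz1-KO-labelled replicates 1 and 3), and none was called of 6 microglial, 6 endothelial or 6 thalamic markers. The Emx1 gene itself fell, from a mean of 763 ± 67.6 (SD, n = 3) to one of 529 ± 55.1 normalized counts (log2 fold change -0.53, limma adjusted p = 0.0150). That call was lost without wildtype replicate 1 (0.0882), wildtype replicate 3 (0.0632) or Zmiz1-KO-labelled replicate 1 (0.0704), without robust estimation (0.0755) and in the libraries with low Xist (0.0692).

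The profile of Cplx3 over the 6 libraries was closest to genes outside the marker set. By the root mean square difference of log2 profiles, each about its own mean, Rorb, a nuclear receptor of layer 4, was among the 3 nearest of the tested genes (0.069), at 1644 ± 124 normalized counts (SD, n = 3) for wildtype and 1219 ± 97.0 for the Zmiz1-KO-labelled libraries. Thbs4, a secreted thrombospondin, was another (0.081), with 45.1 ± 4.52 and 29.8 ± 2.95 normalized counts (limma adjusted p = 0.436). None of the 7 other markers was among these.

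**Figure D5:**
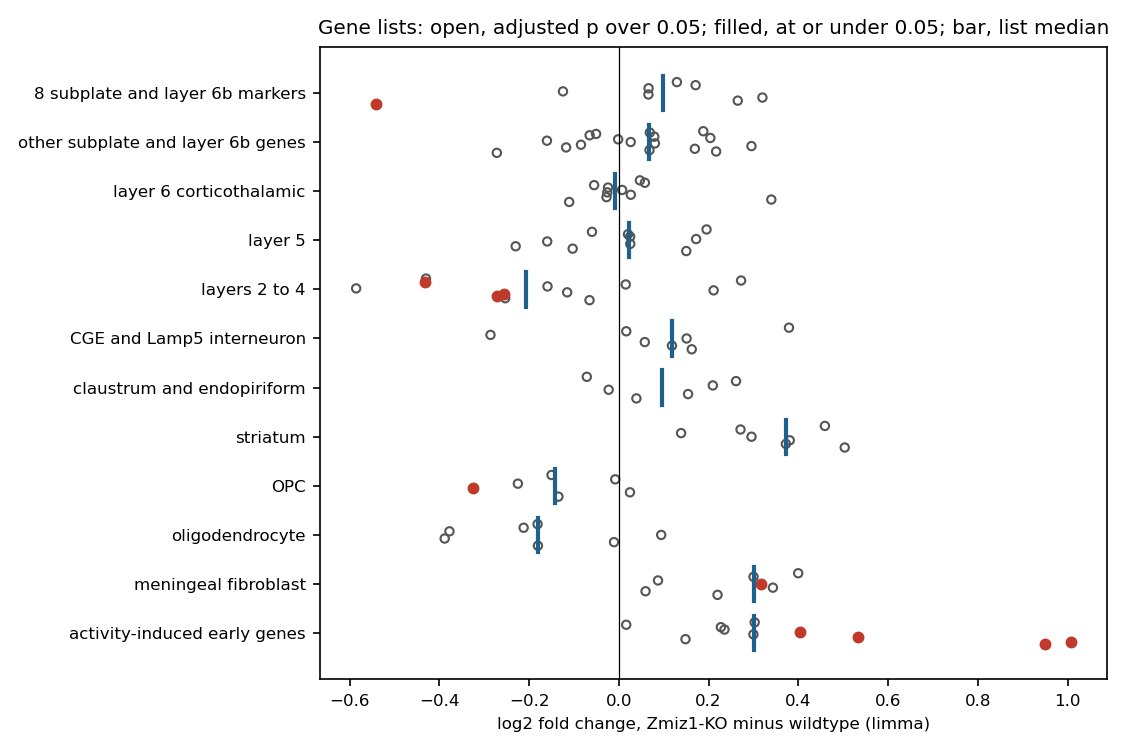
Log2 fold change (Zmiz1-KO minus wildtype, x axis) of the tested genes of 12 lists, with filled red points for an adjusted p at or under 0.05, open points for the others and a blue bar at the list median. The medians are 0.098 for the 8 markers, 0.068 for other subplate and layer 6b genes, -0.21 for layers 2 to 4, 0.37 for striatum and 0.30 for activity-induced early genes.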

How the data were processed

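RNA was sequenced from P7 cortex, 3 libraries per group, grouped by the sample titles. The authors aligned reads to mm10 with STAR in Illumina BaseSpace, counted them per gene and normalized with DESeq2, and the deposited table holds the normalized signal, called normalized counts, per gene and library. Versions and gene annotation are not given in the sources used here. Low values lay near multiples of 1.83 to 2.11 (94.1 to 95.8% of values up to 3 multiples, within 0.1), high ones did not (19.8 to 20.4%), so whole reads were not recovered. Library sums divided by that step gave 15495006 to 17858811 reads, the estimate behind the counting errors.

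The 15800 of 24972 genes that reached 10 in no fewer than 3 libraries were compared on log2(value + 1) with limma 3.58.1 (R 4.3.3, intensity trend, robust estimation, two-sided, Benjamini-Hochberg over all tested genes, threshold 0.05). Adding 1 before the log2 understates changes of low genes. The fit was also run on simulated data with equal depth and the same spread setting for every gene, which real genes do not share, and no result here rests on it. Named genes are the 8 members, Zmiz1, Emx1, Xist, up to 4 called genes of each list (otherwise the one with the smallest adjusted p), and the 3 genes nearest to a called member. One of these 3 is not reported here. Other genes were named after their values were seen. The members and lists were chosen with earlier results of these data known. Coordinates, lengths and overlaps are from GENCODE M21 (GRCm38). Replicate numbers did not pair libraries. Alternatives were 19 other settings. Figures used matplotlib 3.10.9.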

Additional observations from a re-analysis of the deposited data

How the results depend on the processing

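Of the settings tried, those that kept 1 member past the threshold, Cplx3, were limma-voom, median-ratio, upper-quartile and trimmed-mean scaling, a pseudocount of 0.1 or 10, no filter, 10 or more in all libraries, an adjusted p of 0.1, a covariate for sex and the replicate number as a block. The count was 0 without robust estimation (limma adjusted p of Cplx3 0.102) and in the 4 libraries with low Xist (0.0953), and 0 to 1 with a library left out. It was 0 without wildtype replicate 1 (0.141), wildtype replicate 3 (0.0818), Zmiz1-KO-labelled replicate 1 (0.0506) or Zmiz1-KO-labelled replicate 3 (0.177). Over the table, 65 genes passed, but 17 without robust estimation, 106 at an adjusted p of 0.1, 146 in the libraries with low Xist, and 12 to 151 with a library left out. The median log2 fold change of the members, 0.098, was 0.0061 in the libraries with low Xist and 0.0082 to 0.16 with a library left out.

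The replicate block gave 168 calls over the table and left Cplx3 as the only member past the threshold (limma adjusted p = 0.00786). Same-numbered libraries did not deviate together (correlations over genes of -0.0051, -0.11 and -0.0063), so the numbers do not pair them, and the block changed no call on a member.

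None of the members other than Cplx3 passed under any of the 19 settings. Signs turned for Nr4a2 in the libraries with low Xist (-0.024) and without wildtype replicate 1 (-0.0028), for Inpp4b in the libraries with low Xist (-0.044) and without wildtype replicate 3 (-0.054), and for Tmem163 without Zmiz1-KO-labelled replicate 1 (-0.013), none of them past the threshold. With a library left out, the log2 fold changes ran from -0.0028 to 0.19 for Nr4a2, from -0.013 to 0.12 for Tmem163 and from -0.054 to 0.26 for Inpp4b. The count models planned for whole reads were not run, since whole reads were not recovered. Apart from the fewer libraries in some fits, the cause of these differences was not tested.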
